A study of Mus musculus with 2 samples.

Results

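The chemokine ligand genes were taken as the autosomal protein-coding genes of the GENCODE M21 annotation (mm10) whose symbols are Ccl, Cxcl, Xcl or Cx3cl followed by a digit. This gave 37 genes on 8 chromosomes, of 20807 autosomal protein-coding genes in all. Accessibility was measured by DNase-seq, which finds stretches of chromatin that the nuclease DNase I can reach, in thymus tissue of 2 mice with 1 library each. Both were female B6CASTF1/J animals aged 36 days, a cross of C57BL/6J, a laboratory strain, with CAST/EiJ, which derives from wild mice. The labels number them as separate animals but give both the same donor entry. Biological replicate 1 is mouse 1 in what follows and replicate 2 is mouse 2. They form 1 group, and there is no treated or mutant arm. With 1 library per mouse, a difference between the mice has no replicate check.

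Chemokines are small proteins, mostly secreted, that set the direction in which cells with the matching receptor move. They are named for the spacing of their first conserved cysteines, and most of them fall into the CC and CXC families. In the thymus, stromal cells make ligands that draw progenitors in, hold developing T cells in the cortex and lead them on to the medulla. Other members of the family are made by leukocytes or barrier tissues and recruit cells in inflammation.

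For each library there was a shorter peak list (59484 peaks in mouse 1 and 72913 in mouse 2) and a longer list (93107 and 117361). Significant cutting means bases whose deposited false discovery rate (FDR) of the local cut rate lay below 0.05, and a footprint is a short protected stretch inside cut DNA. The signal of a peak is its deposited depth-normalised height, whose scale is not named. Read depth is unknown, so the values carry no counting interval. As a check of the tissue, all 8 thymocyte markers (such as Cd3e, Cd4, Cd8a and Rag1) had a promoter peak in both mice, with signals that summed to 66.4 in mouse 1 and 90.3 in mouse 2. Markers of the cells that make many chemokines were weaker. Of 6 thymic epithelial markers 3 were open, summing to 5.75 and 13.1, with Foxn1, Psmb11 and Krt8 at 0. Of 6 dendritic and macrophage markers 2, Cd68 and Zbtb46, were open in both mice, with Itgax open in mouse 1 alone and Flt3 in mouse 2 alone. The signals of this list summed to 1.94 and 4.15, with Adgre1 and Csf1r at 0. Endothelial markers were open in 2 of 4, with Cdh5 and Tek at 0, and mesenchymal markers in 3 of 4, with Dcn at 0. Their part in the chemokine results was not tested. In a whole tissue, fewer cells of a type and less accessibility per cell cannot be told apart.

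Few chemokine ligand genes had an open promoter in this thymus. A promoter was called open when a peak of the shorter list lay, at least in part, within 1 kb of any annotated start site, and promoter peak means a peak of the shorter list unless the longer one is named. This held in both mice for 4 of the 37 genes, beside 57.3% of all autosomal protein-coding genes. The 4 were Ccl25, Ccl27a, Ccl4 and Cxcl10. With windows of 2500 bp either side the count was 8, beside 59.8%, and with the stronger 50% of peaks it was 2, beside 49.9%. Taken singly, mouse 1 had 4 open promoters, beside 57.7% of all genes, and mouse 2 had 6, beside 63.9%. Mouse 2 alone had a promoter peak at Ccl2 and Cx3cl1, 2 of 37 beside 6.62% of all genes, and mouse 1 alone had none, beside 0.38%. The remaining 31 had none in either mouse, beside 35.7%. These counts describe 1 group of 2 libraries and carry no test. Distances from a start given below are to the middle of a site. The plot of promoter peaks by gene gives both mice for every member.

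**Figure D1:**
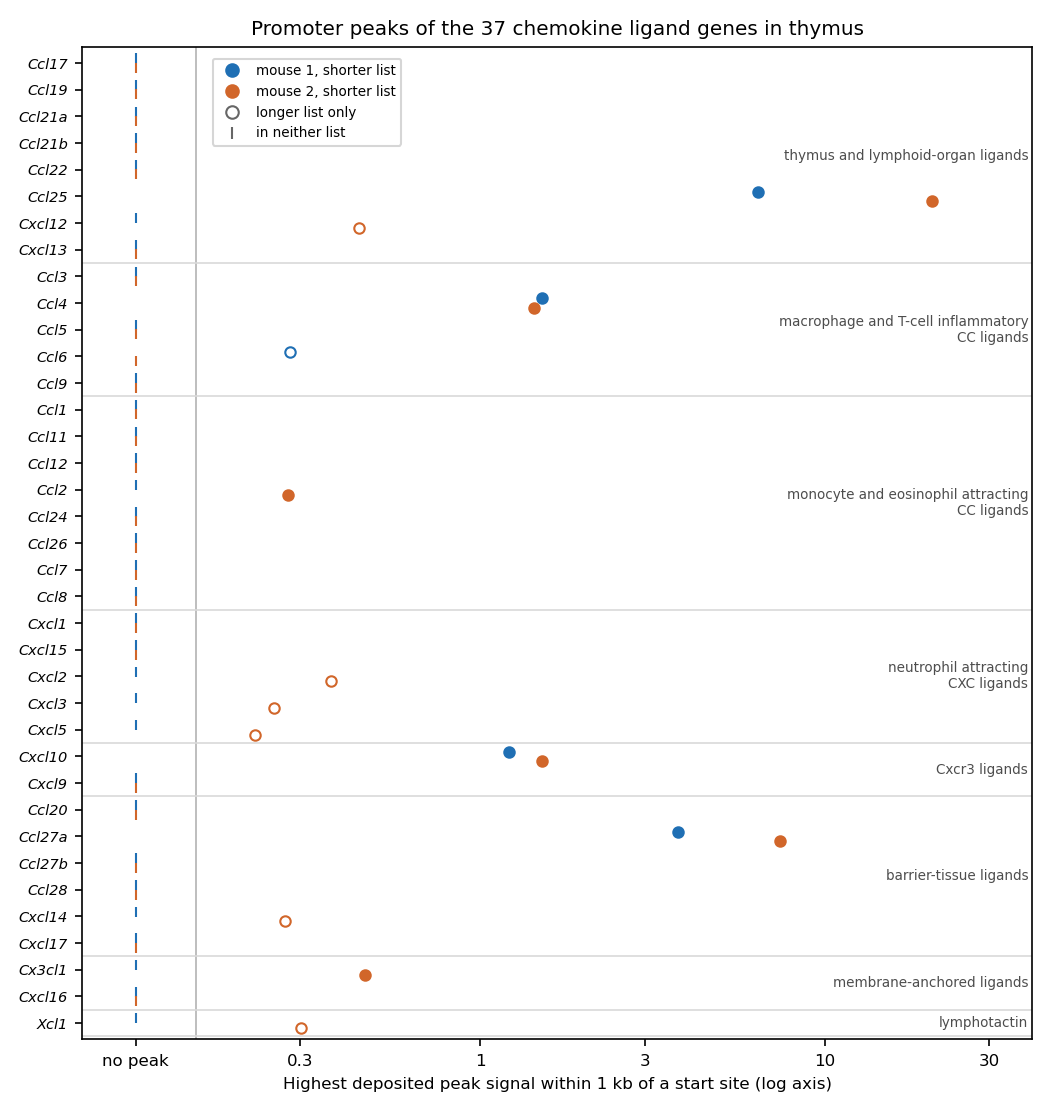
Highest deposited signal of the peaks within 1 kb of a start site (log axis) for each of the 37 chemokine ligand genes, ordered by role. Filled points are peaks of the shorter list, open points peaks found only in the longer list, and ticks at the left mark genes in neither list. Ccl25 has the highest signal in both mice (6.39 and 20.5), and most members sit at the left edge.

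The thymus and lymphoid-organ ligands held 1 open promoter among 8 genes. It belonged to Ccl25, which attracts thymocyte progenitors and thymocytes through the receptor Ccr9. The Ccl25 promoter signal was 6.39 in mouse 1 and 20.5 in mouse 2, the highest of the family in both. It exceeded 59.9% of all open promoters in mouse 1 and 74.3% in mouse 2. The peak (chr8:4325041-4325300, mm10) spanned the Ccl25 start, with its middle 40 bp before it, and also lay within 1 kb of a start of Elavl1, which is transcribed the other way and encodes an RNA-binding protein. Accessibility of the 2 genes cannot be told apart there. With peaks at another protein-coding gene's start left out, 3 of 37 members were open in both mice, beside 46.6% of all genes. The peak held 6 footprints in mouse 1 and 5 in mouse 2. Beside it mouse 1 had a weaker peak of signal 1.01 (chr8:4324441-4324980), where mouse 2 had 540 bases of significant cutting but no listed peak. Ccl25 has 8 annotated start sites. Its only promoter peaks were those given here, all within 1 kb of the Elavl1 start. The promoter sequence from RefSeq (GRCm38.p6, chr8:4324960-4325259, plus strand, 250 bases before to 50 after the start) is shown because it is the strongest of the family. Capitals mark the 89 bases that lie in footprints of both mice.
Ccl25 promoter: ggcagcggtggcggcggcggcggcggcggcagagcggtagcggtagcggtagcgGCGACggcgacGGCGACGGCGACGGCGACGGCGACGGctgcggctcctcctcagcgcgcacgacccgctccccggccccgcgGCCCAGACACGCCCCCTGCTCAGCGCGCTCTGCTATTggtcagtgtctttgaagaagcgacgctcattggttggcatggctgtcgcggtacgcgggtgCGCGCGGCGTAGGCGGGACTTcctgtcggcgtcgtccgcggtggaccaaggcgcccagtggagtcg
A CCAAT box (CCAAT) and an ETS match (CAGGAA), searched on both strands, each touched footprint bases of both mice in this window. The window had a GC content of 74.0%, and its CpG ratio, the observed over the expected number of CpG dinucleotides, was 1.28, above 99.8% of all promoters in the table.

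The other thymus and lymphoid-organ ligands had no promoter peak in either mouse. Cxcl12, the ligand of Cxcr4 that acts in the thymic cortex, had 39 bases of significant cutting at its start sites in mouse 1 and 334 in mouse 2. Its lowest FDR there was 0.0160 and 0.00111, and mouse 2 had a longer-list peak of signal 0.443. A shorter-list peak 1525 bp before the Cxcl12 start was present in both mice, at 0.332 and 1.19. Ccl17 and Ccl22, the ligands of Ccr4, had no promoter peak in either list. A site 2537 bp past the Ccl17 start (chr8:94812881-94813100) was open in both mice at 1.08 and 1.91. Ccl22 had 7 cut bases at its start sites in mouse 1, with a lowest FDR of 0.0490, and 0 in mouse 2. Cxcl13, which attracts B cells, had a weak site 6452 bp before its start at 0.332 and 0.489 and no cutting at the start itself.

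Ccl19 and Ccl21a, medullary and lymph-node ligands of Ccr7, and Ccl21b had 0 bases of significant cutting over the gene body plus 10 kb in both mice. The start windows of Ccl19, Ccl21a, Ccl21b and Ccl27b lay to 100% in sequence that recurs on chromosome 4 at 98% identity or more over at least 200 bp. How reads from such copies were treated is not stated in the labels or file notes, and their part in these values was not tested, so the values cannot be read as closed chromatin. Without these 4 genes, a choice made after seeing the data, 4 of 33 members were open in both mice.

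Among the barrier-tissue ligands, 1 of 6 had an open promoter in both mice. Ccl27a, a skin chemokine that signals through Ccr10, had its strongest promoter peak at chr4:41774101-41774280, at 3.75 in mouse 1 and 7.41 in mouse 2. A weaker peak at chr4:41773601-41773840 was also open in both, at 1.77 and 2.30. Another at chr4:41773041-41773220 was listed in mouse 1 alone at 0.696, where mouse 2 had 161 bases of significant cutting. The strongest peak exceeded 39.2% and 39.4% of open promoters, so its rank was close in both mice although its signal was higher in mouse 2. Ccl27a has 18 annotated start sites, and 52.6% of its start windows lie in near-identical copies. No single copy covered nearly the whole of any peak interval given above, and copies over a smaller part of a peak were not counted. A separate peak in its window, at the start of the interleukin-11 receptor gene Il11ra1, had signals of 1.02 and 2.72. The promoter (RefSeq, GRCm38.p6, chr4:41774127-41774426, minus strand) has 50 bases in footprints of both mice, in capitals.
Ccl27a promoter: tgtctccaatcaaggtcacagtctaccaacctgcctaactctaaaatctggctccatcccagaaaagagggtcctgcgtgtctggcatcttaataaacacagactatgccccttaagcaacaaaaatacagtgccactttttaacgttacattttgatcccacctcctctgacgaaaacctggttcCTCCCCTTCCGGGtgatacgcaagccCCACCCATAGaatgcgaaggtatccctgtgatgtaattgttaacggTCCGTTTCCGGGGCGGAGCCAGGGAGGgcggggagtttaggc
A GC box (GGGCGG) and an NF-kB match (GGG, any 5 bases, CC) touched these footprint bases. Ccl28, a mucosal ligand of Ccr10, had no cutting at its start, and its open site lay 8111 bp into the gene. Cxcl14 had a longer-list peak at its start in mouse 2 alone (0.272) and a site 16665 bp past the start, beyond the gene's end, in both mice (0.408 and 1.51). Ccl20, which attracts cells with Ccr6, had no significant cutting over the whole window in either mouse. Cxcl17 had no cutting at its start. Its window held 2 peaks in mouse 1 and 6 in mouse 2, of which 2 and 4 lay at the start of Lipe, a lipase gene.

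The macrophage and T-cell inflammatory CC ligands had 1 open promoter among 5 genes. Ccl4, which attracts macrophages and T cells, had a peak 244 bp before its start (chr11:83662221-83662460) at 1.51 in mouse 1 and 1.43 in mouse 2. The libraries lay close together at this promoter, with a log2 ratio of mouse 2 to mouse 1 of -0.08, beside a median of 0.77 over 46897 shared autosomal peaks. It exceeded only 16.4% and 13.7% of open promoters. Its neighbour Ccl3, also a macrophage inflammatory protein, had 0 cut bases at its start in both mice. Past the 3' end of Ccl3, a group of peaks was open. Their strongest lay 9035 bp past the Ccl3 start (chr11:83640181-83640460), at 6.73 in mouse 1 and 3.68 in mouse 2. The next, 9645 bp past the start, had signals of 2.06 and 1.33, and a weaker peak at 10189 bp had 0.600 and 0.544. All 3 of these signals were higher in mouse 1, whereas 21 of the 27 chemokine sites open in both mice were higher in mouse 2. A further peak at 7954 bp was listed in mouse 1 alone at 0.536, with 200 cut bases in mouse 2. Ccl5, which attracts T cells and monocytes, had no cutting at its start in either mouse. Ccl9 had no cutting anywhere in its window, and Ccl6 had 125 cut bases at its start sites in mouse 1 and 27 in mouse 2, with lowest FDRs of 0.00361 and 0.0328. Ccl6 also had a longer-list peak at its start in mouse 1 alone, at 0.281.

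In the pair of Cxcr3 ligands on the autosomes, Cxcl10 was open and Cxcl9 was not. Both are induced by interferon and attract activated T cells. Cxcl10 had a peak over its start (chr5:92348841-92349040), with its middle 51 bp before it, at 1.21 in mouse 1 and 1.51 in mouse 2, above 12.7% and 14.2% of open promoters. It held 1 footprint in mouse 1 and 3 in mouse 2, and no base was in a footprint of both. A second peak 4851 bp before the Cxcl10 start, in an intron of Art3, had signals of 0.734 and 1.52. Cxcl9 had no cutting at its start sites, and the nearest site, 15558 bp past its start, had signals of 1.69 and 2.59. The Cxcl10 promoter (RefSeq, GRCm38.p6, chr5:92348840-92349139, minus strand) is shown because its mean signal was among the 3 highest of members with a RefSeq promoter. Of these 3 promoters it alone held an interferon response match or an AP-1 match. Capitals here mark 43 bases in matches to the interferon response element ISRE (GAAA, any 2 bases, GAAA), NF-kB, AP-1 (TGANTCA) and the CCAAT box.
Cxcl10 promoter: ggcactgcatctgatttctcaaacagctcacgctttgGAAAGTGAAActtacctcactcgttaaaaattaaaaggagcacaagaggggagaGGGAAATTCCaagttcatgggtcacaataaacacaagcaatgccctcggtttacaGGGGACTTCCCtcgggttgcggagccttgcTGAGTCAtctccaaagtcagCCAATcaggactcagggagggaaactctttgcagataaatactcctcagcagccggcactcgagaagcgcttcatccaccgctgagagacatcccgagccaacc
Footprints covered 7 bases of this window in mouse 1 and 27 in mouse 2, and shared none. No match could therefore touch a shared footprint base here.

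None of the 8 monocyte and eosinophil attracting CC ligands had a promoter peak in both mice. Ccl2, the main monocyte attractant, had a peak over its start in mouse 2 alone, with its middle 37 bp before it, at 0.277, with no cut base at the start sites in mouse 1. That peak exceeded 0.601% of the open promoters of mouse 2, so it was among the weakest listed. Ccl8, Ccl12, Ccl24 and Ccl26 had no significant cutting over their whole windows in either mouse. Ccl7 and Ccl11, neighbours on chromosome 11, shared a weak site between them at 0.434 and 0.705.

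Ccl1, a ligand of Ccr8, had the most sites of its group, 5 open in both mice, over a window lengthened by an annotated transcript that begins far upstream. Its density was 0.336 peaks per 10 kb in both mice, below the 0.458 of Ccl7 and the 0.398 of Ccl11. None of the 5 lay at its start sites, where mouse 1 had 8 cut bases and mouse 2 had 0. Those 8 bases had a lowest FDR of 0.0408 and belonged to a run cut more strongly outside the start windows. The strongest in mouse 2 lay 4772 bp past the start, beyond the gene's end, at 1.82 in mouse 1 and 4.45 in mouse 2. A site 1452 bp past the start had signals of 1.91 and 2.47. The remaining 3 lay before the start, in an intron of that long transcript. Their signals were 2.92 and 2.24 at 3628 bp, 0.696 and 1.07 at 15374 bp, and 0.702 and 0.690 at 34807 bp. Mouse 1 was higher at 2 of the 5 sites.

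**Figure D2:**
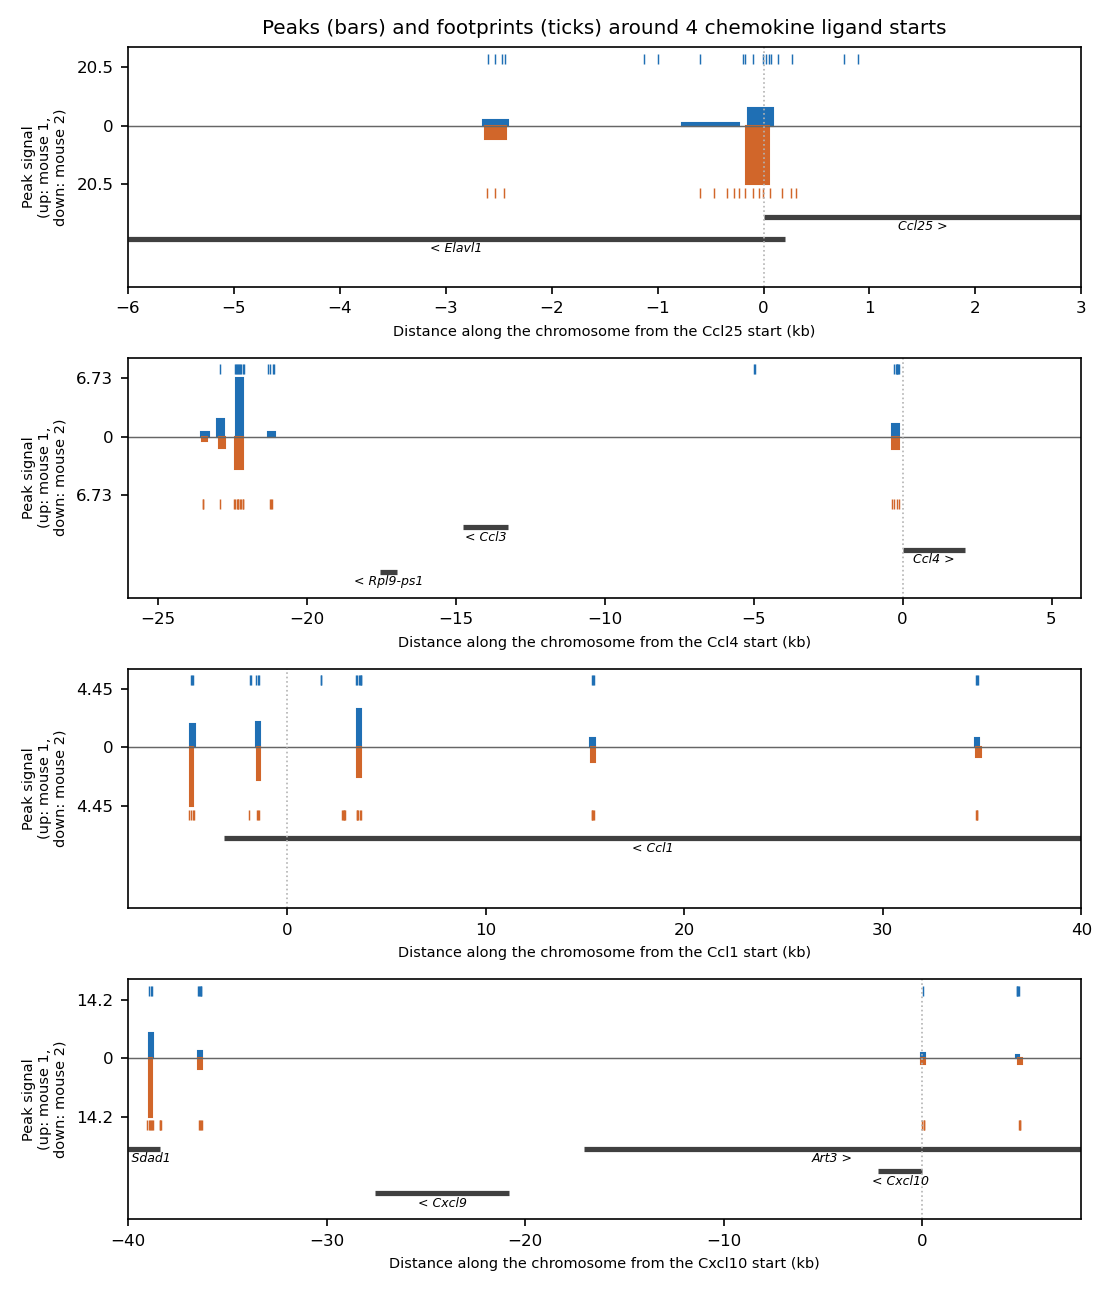
Peaks of the shorter list as bars (mouse 1 upward, mouse 2 downward, height the deposited signal, scaled in each panel to its highest peak) and footprints as ticks, by distance along the chromosome from the start of Ccl25, Ccl4, Ccl1 and Cxcl10. Grey lines are genes with their direction of transcription. The strongest peak of the Ccl3 and Ccl4 panel, 6.73 in mouse 1 and 3.68 in mouse 2, lies away from both genes, and Ccl1 has peaks on both sides of its start but none on it.

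The neutrophil attracting CXC ligands were closed in mouse 1 and weakly cut in mouse 2. None of the 5 genes had a promoter peak of the shorter list in either mouse. In mouse 1, 9 bases at the start of Cxcl1 were the only significant cutting in the whole cluster. Mouse 2 had longer-list peaks at the starts of Cxcl2 (0.368), Cxcl3 (0.252) and Cxcl5 (0.222), and none at Cxcl1 or Cxcl15. Their lowest FDRs were 0.00853, 0.00157 and 0.00766. The cluster with its 10 kb flanks spanned 167 kb and held 0 peaks in mouse 1 and 1 in mouse 2, a site 5311 bp past the Cxcl2 start at 0.841. Over all autosomes there were 23.5 and 28.9 peaks per Mb, against 0 and 6.0 in this cluster. Other clusters of several members lay on both sides of the autosomal rates. Cxcl9 and Cxcl10 had 63.1 and 63.1, the Ccl5 to Ccl4 cluster 31.5 and 25.2, and the Ccl2 to Ccl1 cluster 20.7 and 24.1. The Ccl22 to Ccl17 cluster had 11.6 and 34.7. Ccl26 with Ccl24, and the Ccl27b to Ccl21a cluster of copied genes, had 0 in both mice.

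Neither of the membrane-anchored ligands was open in both libraries. Cx3cl1, which binds Cx3cr1, had a promoter peak in mouse 2 alone at 0.464, above 3.51% of open promoters, with 247 cut bases against 0 in mouse 1. A second Cx3cl1 site, 13665 bp past the start, was listed in mouse 2 alone at 1.50, and mouse 1 had 111 cut bases there. Cxcl16, the ligand of Cxcr6, had no cutting at its start sites in either mouse. Both peaks of its window lay at the start of Med11, a Mediator subunit gene, at 6.09 and 15.2 and at 7.14 and 15.6. Xcl1, a ligand of Xcr1 made by lymphocytes, had a longer-list peak at its start in mouse 2 alone, at 0.302.

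For contrast, 3 members without a promoter peak of the shorter list are shown, taken in symbol order. They had a trace of significant cutting within 1 kb of a start site, which need not lie in the printed sequence. They are Ccl1 (chr11:82179763-82180062, minus strand), Ccl22 (chr8:94745434-94745733, plus strand) and Ccl6 (chr11:83593038-83593337, minus strand), from RefSeq (GRCm38.p6). Capitals mark matches to the CCAAT box and NF-kB in Ccl1, NF-kB and ETS in Ccl22, and ETS in Ccl6.
Ccl1 promoter: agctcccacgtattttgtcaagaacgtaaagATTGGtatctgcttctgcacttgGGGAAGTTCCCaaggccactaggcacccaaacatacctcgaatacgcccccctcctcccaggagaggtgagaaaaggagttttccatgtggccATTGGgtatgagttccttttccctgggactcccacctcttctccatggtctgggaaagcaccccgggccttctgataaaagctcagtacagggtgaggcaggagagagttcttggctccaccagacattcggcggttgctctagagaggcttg
Ccl22 promoter: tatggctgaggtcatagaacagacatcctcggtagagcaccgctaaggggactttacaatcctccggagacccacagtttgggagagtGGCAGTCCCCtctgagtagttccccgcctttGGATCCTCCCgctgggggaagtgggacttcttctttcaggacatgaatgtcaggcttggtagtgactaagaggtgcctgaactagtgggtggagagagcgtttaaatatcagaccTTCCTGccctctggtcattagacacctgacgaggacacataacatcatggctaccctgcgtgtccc
Ccl6 promoter: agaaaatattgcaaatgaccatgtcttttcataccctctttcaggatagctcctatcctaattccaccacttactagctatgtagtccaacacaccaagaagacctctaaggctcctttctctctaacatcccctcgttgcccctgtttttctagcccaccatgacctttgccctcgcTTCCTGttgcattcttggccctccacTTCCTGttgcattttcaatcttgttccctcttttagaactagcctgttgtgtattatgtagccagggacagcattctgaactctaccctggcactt
No footprint base of either mouse lay in these windows.

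Weaker measures of accessibility also reached few members at start sites. In both mice 4 of 37 members carried a longer-list peak, beside 61.6% of all genes. Significant cutting reached 6 of 37 in both mice, beside 62.7%, adding Cxcl12 and Ccl6. Weak calls were also looked for at 6 marker genes of tissues other than thymus. None of the 6 had a shorter-list promoter peak in either mouse. Syt1 and Ttn had cutting and longer-list peaks at their start sites in both mice, and Nefl in mouse 2 alone. Alb, Apoa1 and Myh6 had neither in either mouse. These genes were not matched to the members in the length searched. Start windows summed to 27334 bp at Ttn, 5884 bp at Syt1, 6638 bp at Myh6 and 2001 bp at Nefl. At the members they ran from 2001 bp to the 6036 bp of Ccl27a. Cutting touched the start sites of 9 members in mouse 1, beside 63.5% of all genes, and of 13 in mouse 2, beside 70.4%. Footprints were present in both at 4 of 37, beside 60.1%. Mouse 2 had more of the weak signal. The longer list had a promoter peak at 5 members in mouse 1, beside 62.3% of all genes, and at 12 in mouse 2, beside 69.6%. Footprints were found at 4 in mouse 1, beside 60.5%, and at 11 in mouse 2, beside 68%. No cutting at all in either mouse was seen at the start sites of 21 of 37, beside 28.8%.

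Windows of the gene body with 10 kb flanks contain the start windows, so their counts of peaks cannot be lower than those at the starts. A peak lay in that window in both mice for 16 of 37 members, beside 72.3% of all genes. No peak in either mouse was found for 18 of 37, beside 21.5%, and no significant cutting for 10 of 37, beside 12.8%. The 10 include all 4 genes whose start windows are wholly copied. These shares are not adjusted for window length, which grows with the length of the gene. Members and all genes were not matched in it, whereas peaks per 10 kb are set against length. The median number of peaks per 10 kb over the chemokine ligands was 0 in mouse 1 and 0.198 in mouse 2, an SD of 0.140 between the mice (n = 2). Over all autosomal protein-coding genes it was 0.433 and 0.50, an SD of 0.0474. When each gene was first averaged over the mice, the median was 0.198 for the chemokine ligands and 0.485 for all genes. The mean per 10 kb was 0.305 for the chemokine ligands and 0.789 for all genes.

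In these windows there were 31 peaks in mouse 1 and 36 in mouse 2, which merged into 40 sites. Of these, 27 were listed in both mice, 4 in mouse 1 alone and 9 in mouse 2 alone. All 4 sites of mouse 1 alone had significant cutting in mouse 2, and 5 of the 9 sites of mouse 2 alone had it in mouse 1. Of the peaks in the chemokine windows, 87.1% of those of mouse 1 and 75.0% of those of mouse 2 had a partner in the other library, beside 80.9% and 66.1% of all autosomal peaks. The median log2 ratio of mouse 2 to mouse 1 over the 27 shared sites was 0.82, near the 0.77 of all shared peaks. Most peaks held a footprint, 30 of 31 in mouse 1 and 34 of 36 in mouse 2, beside 87.2% and 89.8% of all autosomal peaks. Only 9 of the 40 sites lay within 1 kb of a chemokine ligand start, and 2 of those 9 were also at the Elavl1 start. Another 7 lay at the start of a gene outside the family. The other 24 lay at no protein-coding start, with 15 between genes, 7 in introns and 2 in exons, and 17 of them were open in both mice.

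**Figure D3:**
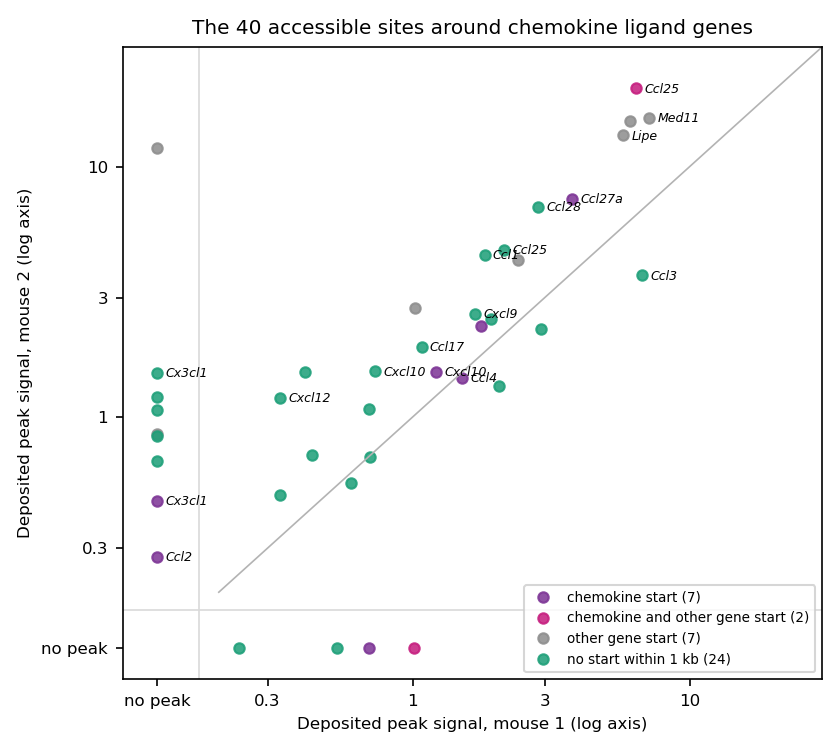
Deposited signal (log axes) of the 40 sites around the chemokine ligand genes in mouse 1 and mouse 2, coloured by whether a chemokine start, another gene's start or no start lies within 1 kb. Sites listed in 1 mouse alone sit on the margins marked no peak, and the grey line marks equal signal. Most shared sites, 21 of 27, lie above the line, and the Ccl3 site lies below it at 6.73 and 3.68.

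The strongest shared sites away from any protein-coding start are shown with their footprints, since 3 of the 4 lie near members whose own start is closed. They were chosen by signal after the values were known. Their positions, on the plus strand of mm10, are chr11:83640181-83640460 past the end of Ccl3, chr13:119631821-119632040 in an intron of Ccl28, chr8:4322561-4322800 before Ccl25 in an intron of Elavl1, and chr11:82174921-82175160 past the end of Ccl1. Capitals mark bases in footprints of both mice, which number 57, 51, 80 and 48.
site at Ccl3: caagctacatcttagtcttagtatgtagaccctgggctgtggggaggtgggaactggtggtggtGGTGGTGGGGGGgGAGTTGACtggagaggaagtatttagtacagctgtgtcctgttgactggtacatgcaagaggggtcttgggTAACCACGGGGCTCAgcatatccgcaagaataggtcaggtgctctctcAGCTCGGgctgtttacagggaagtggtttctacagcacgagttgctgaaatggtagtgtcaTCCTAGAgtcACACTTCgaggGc
site at Ccl28: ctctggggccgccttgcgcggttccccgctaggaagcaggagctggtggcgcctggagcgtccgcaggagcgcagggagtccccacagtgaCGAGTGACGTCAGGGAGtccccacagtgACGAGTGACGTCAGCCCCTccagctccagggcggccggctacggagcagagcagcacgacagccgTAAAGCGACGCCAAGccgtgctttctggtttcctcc
site at Ccl25: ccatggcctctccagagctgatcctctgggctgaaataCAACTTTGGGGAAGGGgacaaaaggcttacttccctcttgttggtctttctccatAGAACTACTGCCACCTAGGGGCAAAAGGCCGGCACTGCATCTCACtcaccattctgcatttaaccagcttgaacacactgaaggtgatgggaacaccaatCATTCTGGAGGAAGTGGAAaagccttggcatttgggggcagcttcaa
site at Ccl1: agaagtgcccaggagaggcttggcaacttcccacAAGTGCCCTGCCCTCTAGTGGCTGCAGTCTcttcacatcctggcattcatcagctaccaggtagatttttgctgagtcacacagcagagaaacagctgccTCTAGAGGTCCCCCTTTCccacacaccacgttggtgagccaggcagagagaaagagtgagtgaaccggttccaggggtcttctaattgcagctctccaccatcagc
The Ccl28 site had signals of 2.83 in mouse 1 and 6.89 in mouse 2, and that before Ccl25 had 2.14 and 4.64. The Ccl28 site holds 2 copies of the cyclic AMP response element CRE (TGACGTCA), both inside footprints of both mice. This motif was in 0.566% and 0.432% of all autosomal peaks away from starts, over their central 200 bp. A match to letters from the binding sequence of the insulator protein CTCF (CC, any 3 bases, AG, any 2 bases, GG) touched shared footprint bases at the Ccl25 and Ccl1 sites. It was found in 15 of the 24 chemokine sites away from starts, beside 31.1% and 36.4% of all such peaks in mouse 1 and mouse 2. With a C required after these letters it was in 11, beside 18.7% and 23.2%. The CRE and CTCF letters were chosen after these sequences had been read, so the counts are descriptions. RUNX (TGTGGT) was in 5 of 24, beside 24.3% and 21.2%, and ETS in 5 of 24, beside 37.1% and 32.5%. AP-1 (TGANTCA) was in 5 of 24, beside 6.77% and 6.23%, and NF-kB in 8, beside 32.6% and 35.4%. A CCAAT box was in 5, beside 17.9% and 17.9%, and a GC box in 3, beside 11.7% and 13.2%. The TATA box (TATAAA) was in 1, beside 5.43% and 4.97%, and ISRE in 1, beside 2.57% and 2.01%. None of these differences was tested.

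As a family, the chemokine promoters were poor in CpG. A RefSeq promoter (GRCm38.p6) within 1 kb of an annotated start was matched for 26 of 37 members and for 15565 genes in all. Unmatched were Ccl2, Ccl4, Ccl5, Ccl7, Ccl11, Ccl21b, Ccl24, Ccl26, Cxcl5, Cxcl16 and Cxcl17. The median CpG ratio was 0.280 for the members and 0.617 for all genes, and the median GC content was 52.5% and 57.3%. When all promoters were divided into 3 equal groups by CpG ratio, 15 of the 26 fell in the lowest, 10 in the middle and 1, Ccl25, in the highest. In the lowest group 0 of 15 members were open in both mice, beside 18.0% of all genes there. In the middle group 2 of 10 were open, Ccl27a and Cxcl10, beside 70.6%. In the highest group 91.0% of all genes were open, as was Ccl25. The middle group ran from a CpG ratio of 0.352 to 0.778. Of its 10 members, 5 lay near its lower end, Cxcl3 (0.359), Ccl22 (0.376), Ccl19 (0.390), Cxcl1 (0.397) and Cxcl2 (0.399), and none of them was open. Cx3cl1 (0.615), Cxcl12 (0.639) and Cxcl14 (0.772) were not open in both mice either, although Cx3cl1 was open in mouse 2. Their ratios were above those of the open Ccl27a (0.588) and Cxcl10 (0.528). Ccl19 is also among the genes that could not be read because of their copies. Members and all genes were not matched in CpG ratio within this group, and its part in the share of open members was not tested.

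The motif letters differed from those of other promoters in both directions. A TATA box (TATAAA) was in 30.8% of the 26 promoters and 12.9% of all. A GC box was in 23.1% and 49.1%, and a CCAAT box in 26.9% and 38.4%. The NF-kB letters were in 53.8% of members and 58.4% of all promoters. ISRE was in 3 members (Ccl19, Cxcl10 and Cxcl14), which is 11.5% beside 3.48%, and AP-1 in 19.2% beside 7.02%. ETS was in 42.3% beside 28.4% and RUNX in 19.2% beside 14.7%. Absence of a match says only that these letters are not in the window of 300 bases.

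**Figure D4:**
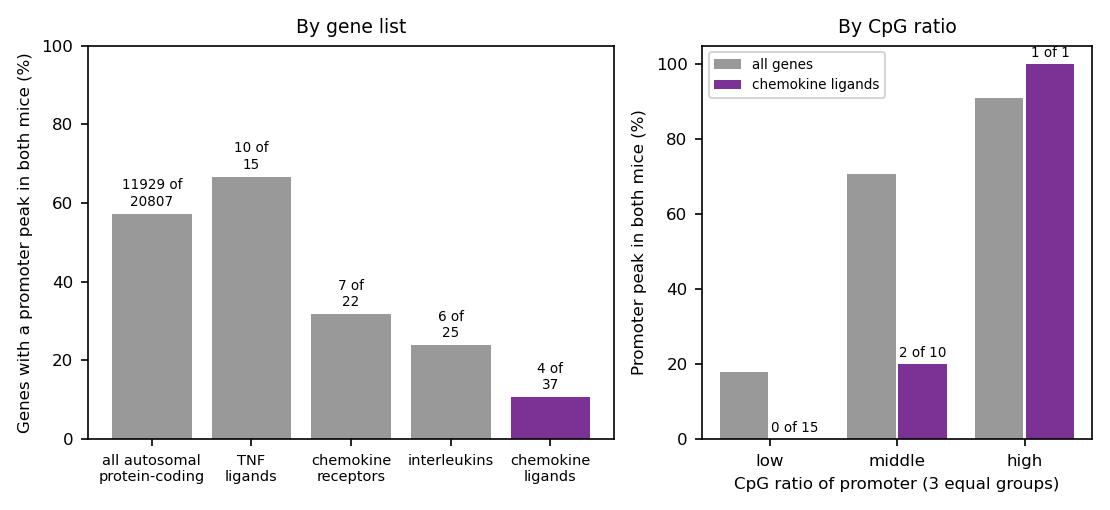
Left, percent of genes with a promoter peak in both mice for all autosomal protein-coding genes and 4 lists, with counts above the bars. Right, the same percent by CpG ratio of the promoter in 3 equal groups, for all genes (grey) and chemokine ligands (purple). The chemokine ligands have the shortest bar at left (4 of 37), and in the lowest and middle groups at right their bars (0 of 15 and 2 of 10) are below those of all genes.

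Other signalling genes were counted in the same way, beside 57.3% of all genes and 10.8% of the chemokine ligands. The TNF ligand list, cytokines anchored in or shed from the membrane, had 10 of 15 open in both mice (66.7%). The chemokine receptors had 7 of 22 (31.8%) and the interleukins 6 of 25 (24.0%), so these lists also lay below all genes. The differences between the lists were not tested. Cxcr4, the receptor of Cxcl12, had promoter signals of 11.3 in mouse 1 and 17.7 in mouse 2. Ccr7, the receptor of Ccl19 and Ccl21, had 8.55 and 8.24, and Ccr9, the receptor of Ccl25, had 3.27 and 5.77. All 3 of these receptors were open in both libraries. Among their ligands, Ccl25 was open as well, but only at peaks that also lay at the Elavl1 start. Cxcl12 had significant cutting but no peak of the shorter list at its start, and Ccl19 and Ccl21a could not be read because of their copies. Ccr10, the receptor of Ccl27a, had no promoter peak in either mouse, and a longer-list peak of 0.66 in mouse 2 alone. Cxcr3, the receptor of Cxcl10 on the X chromosome, had a promoter peak of 0.389 in mouse 1 and none in mouse 2. Mouse 2 had a longer-list peak of 0.489 there.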

How the data were processed

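DNase-seq libraries of thymus from 2 mice were used. Per the notes among the deposited files, the authors took peaks and cut rates from filtered mm10 alignments, library by library, and footprints from cut rates and alignments. The sources used here name no caller or threshold. The deposited signal of each peak is a depth-normalised height made by the authors. In each library 100% of the 2000 lowest distinct values were whole multiples of 1 step (0.00638 in mouse 1, 0.00504 in mouse 2), within 0.1 steps. The p-value column that the authors deposited with the cut rates is an FDR, listed only below 0.05, and touching runs were merged. The footprint lists carry a constant 0.01, so only positions were used.

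Peaks, merged runs and footprints were counted at all GENCODE M21 start sites (1 kb either side, overlap of at least 1 bp) and over the gene body plus 10 kb, for every autosomal protein-coding gene, with Python 3.11.15, numpy 2.4.6, pandas 2.3.3 and pysam 0.24.0. Counting was tested on simulated intervals against bedtools 2.31.1. Near-identical copies were found with BLAST+ 2.17.0 (98% identity, 200 bp). Motifs were matched on both strands. Every member may be named. Receptors are named where their ligand was open in both mice or where their mean promoter signal was among the 3 highest. A gene that entered the counts is not reported here. The members and lists were chosen with earlier results of these data known. No test was made, since the design holds 1 group, and the spread between 2 animals is the only error.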

Additional observations from a re-analysis of the deposited data

How the results depend on the processing

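The 4 members open in both mice were also 4 with start windows of 500 bp, beside 56.1% of all genes, and with the gene's 5' end alone, beside 52.9%. They were 4 with the longer list, beside 61.6%, and with at least 50% of the peak required in the window, beside 57.2%. The count became 8 with windows of 2500 bp, beside 59.8% of all genes, and 2 with the stronger 50% of peaks, beside 49.9%. With 2500 bp the longer-list count became 8, beside 64.4%, the cutting count 10, beside 65.6%, and the footprint count 7, beside 62.7%. Leaving out a mouse gave 4 to 6 members with a promoter peak, 5 to 12 with a longer-list peak, 9 to 13 with cutting and 4 to 11 with a footprint, the higher value in each case coming from mouse 2 alone. The shares of all genes with a mouse left out were 57.7% to 63.9% for a promoter peak and 62.3% to 69.6% for a longer-list peak. For cutting they were 63.5% to 70.4%, and for a footprint 60.5% to 68%. Cutting at an FDR of at most 0.001 gave 4, beside 58% of all genes, and cutting of at least 50 bases gave 4, beside 61.5%. The median over members of the density averaged over the mice, 0.198, became 0 with 5 kb flanks, 0.398 with the longer list and 0 with the stronger 50% of peaks. It was 0 to 0.198 when a mouse was left out, 0 from mouse 1 alone. The causes were not tested beyond what each setting changes by construction. Of the 38 values under alternatives, 26 stayed within 1.5 times the main count or within the spread between mice, and 12 moved. No paired analysis was possible because both libraries belong to 1 group. Depth in reads is unknown, and 2 libraries allow no test of the difference between mice. Weak sites seen in mouse 2 alone cannot be told apart from its longer peak lists.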

Other observations

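Cxcl11, the remaining Cxcr3 ligand, is annotated as a polymorphic pseudogene in GENCODE M21 and so is outside the rule. It had no promoter peak in either mouse, and its window held 3 peaks in mouse 1 and 3 in mouse 2. The platelet chemokine genes Pf4 and Ppbp, which are named otherwise, had no promoter peak and no window peak in either mouse.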
